A study of Mus musculus with 2 samples.

Results

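The lists of methylated DNA from mouse liver held 490 regions tied to an olfactory or vomeronasal receptor gene in the Pemt-/- mouse, of 97063 regions in all, and 639 in the Pemt+/+ mouse, of 131279 in all. A region, which is a stretch of the genome where captured reads piled up, was taken when the deposited list paired it with a gene whose symbol begins with Olfr, Vmn1r, Vmn2r or an older V1r or V2r symbol. The lists pair each region with every RefSeq transcript that it overlaps or that lies within 10 kb of it. One library was made for each genotype, and the labels give 1 liver sample per library without stating the number of animals in it, so that a mouse is named here for the library of its genotype. Both mice received HFHS chow, a diet rich in fat and sucrose, from 5 to 25 weeks of age per the series' design text, whereas the Methods give shorter feeding times for the livers used for enrichment. Pemt encodes phosphatidylethanolamine N-methyltransferase, a liver enzyme that makes phosphatidylcholine by adding methyl groups. With 1 library per genotype no test of the genotype was possible, so each comparison is between these 2 libraries, and every interval is a 95% Wilson interval that covers counting error only. The totals of reads sequenced were not given in the sources used here. The tags (reads) lying in listed regions summed to 1582080 in Pemt-/- and 2847831 in Pemt+/+, so more regions and more tags per region were listed genome-wide for the Pemt+/+ mouse.

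Olfactory receptors (Olfr) are the odorant receptors of the nose, and each olfactory neuron transcribes a single one of them. The vomeronasal receptors of the V1r and V2r families detect pheromones and other chemical signals in the vomeronasal organ. The genes sit in tandem clusters that are poor in CpG, and liver cells are not a tissue in which most of them act. V1r and Olfr genes have a coding sequence within a single exon, while V2r genes are long and carry several exons, which bears on how often a region can lie inside one.

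The bases in front of these genes held few CpG sites, the sites at which DNA is methylated in mammals. In RefSeq (assembly GRCm38.p6), the 250 bases before the transcript start held a median of 1 CpG in 1274 upstream sequences of 1269 protein-coding receptor genes, with a range of 0 to 17, and 40.5% held none. The 19988 upstream sequences of other protein-coding genes held a median of 11 CpG, and 4.45% held none. At least 10 CpG were found in 0.157% of the receptor sequences and 53.3% of the others, and the median GC content was 34.8% and 56.4%. Receptors with a region in either mouse and receptors with no region both had a median of 1 CpG, in 407 and 867 sequences. For many receptors the annotated start is that of a coding exon, so these stretches need not be the promoters used in the nose. The 4 sequences shown here belong to Olfr genes whose start lay under a region, and they show how far such genes differ in CpG. They run 5′ to 3′ on the strand of the gene, in lower case with each CpG in capitals. Olfr212 (chr6:116506266-116506515, plus strand) holds 12 CpG, more than 99.8% of the receptor sequences. Olfr282 (chr15:98437220-98437469, plus strand) holds 3. Olfr281 (chr15:98456062-98456311, plus strand) holds 2. Olfr820 (chr10:130017113-130017362, plus strand) holds 0.
Olfr212: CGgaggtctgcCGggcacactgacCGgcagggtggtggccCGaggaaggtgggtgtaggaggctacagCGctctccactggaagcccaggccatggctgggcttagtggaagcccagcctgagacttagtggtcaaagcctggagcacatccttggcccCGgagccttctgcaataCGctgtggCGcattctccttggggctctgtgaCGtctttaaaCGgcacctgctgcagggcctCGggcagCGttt
Olfr282: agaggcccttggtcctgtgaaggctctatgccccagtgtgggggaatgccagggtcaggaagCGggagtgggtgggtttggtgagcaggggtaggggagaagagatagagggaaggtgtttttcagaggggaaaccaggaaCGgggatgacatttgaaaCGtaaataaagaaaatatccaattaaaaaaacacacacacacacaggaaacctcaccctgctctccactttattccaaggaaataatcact
Olfr281: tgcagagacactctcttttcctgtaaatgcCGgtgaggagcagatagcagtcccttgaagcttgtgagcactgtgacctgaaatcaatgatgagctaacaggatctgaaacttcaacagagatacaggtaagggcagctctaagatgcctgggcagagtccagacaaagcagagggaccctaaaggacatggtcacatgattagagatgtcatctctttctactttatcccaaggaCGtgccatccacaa
Olfr820: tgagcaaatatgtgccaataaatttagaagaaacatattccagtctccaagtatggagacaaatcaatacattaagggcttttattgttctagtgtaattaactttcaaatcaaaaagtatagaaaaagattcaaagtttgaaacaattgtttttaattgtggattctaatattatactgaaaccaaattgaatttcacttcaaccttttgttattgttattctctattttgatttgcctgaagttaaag

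**Figure D1:**
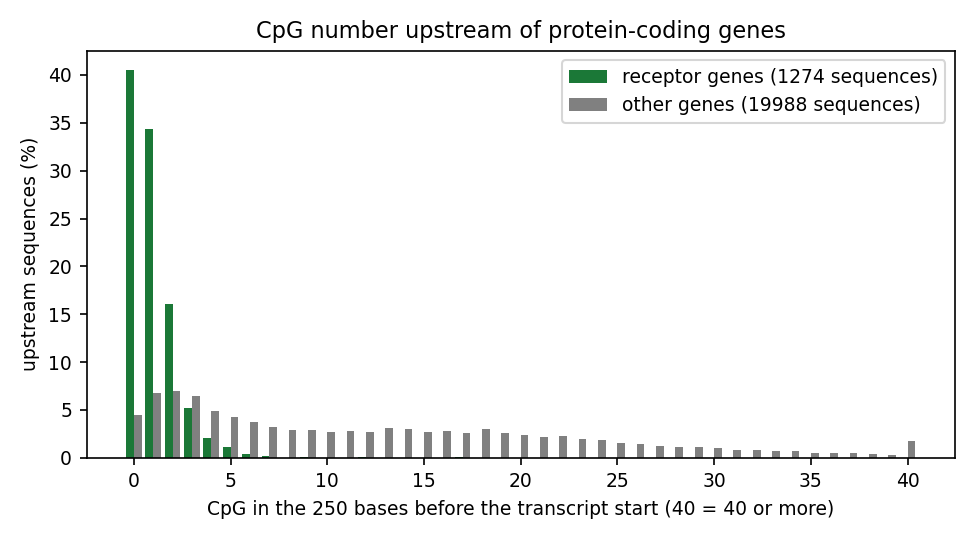
Number of CpG in the 250 bases before the transcript start (horizontal axis, with 40 or more drawn at 40) against the percent of upstream sequences of receptor genes (green) and of other protein-coding genes (grey). The receptor genes pile up at 0 to 2 CpG, while the other genes spread over the whole axis with a median of 11.

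A region lay over the start of a receptor transcript 8 times in Pemt-/- and 9 times in Pemt+/+, and 5 genes had one in both mice. This is 1.63% (0.830 to 3.19%) and 1.41% (0.743 to 2.65%) of receptor regions, beside 0.505% and 0.543% of regions at other genes, whose transcripts are longer. Of the regions at other genes, 80.8% and 80.5% lay inside a transcript, so these shares of regions are not rates per gene. By number, 234 and 343 regions lay over a start at other genes. The RefSeq table holds 20160 other protein-coding genes and 1467 receptor genes. Coordinates of regions are in mm9, the build named in the submitters' processing notes, and differ from those of the GRCm38.p6 sequences. The start of Olfr750 lay under a region with 39 tags in Pemt-/- (chr14:51690683-51691359) and 57 tags in Pemt+/+. The start of Olfr282 lay under 32 tags in Pemt-/- (chr15:98267785-98268451) and 38 tags in Pemt+/+. The start of Olfr212, the gene with 12 CpG, lay under 21 tags in Pemt-/- (chr6:116456217-116457169) and 30 tags in Pemt+/+. These 3 held the most tags among start regions of the Pemt-/- mouse, and their ratios of Pemt-/- to Pemt+/+ tags were 0.684, 0.842 and 0.70, beside a median of 0.682 over all paired regions of the genome. Vmn2r29, a V2r gene, had 15 tags over its start in each mouse, and Olfr71 had 14 in Pemt-/- and 10 in Pemt+/+. Olfr281 differed from its neighbour Olfr282, because its start lay under 46 tags in Pemt+/+ (chr15:98286639-98287523) and under no listed region in Pemt-/-, where the nearest region was 2269 bp away with 10 tags. Over the 12 genes with a start region in either mouse and an upstream sequence, the 13 sequences had a median of 3 CpG and a median GC content of 47.2%. The start of Olfr820 carried 12 tags in Pemt-/- although its upstream sequence has no CpG, and the Pemt+/+ mouse had 17 tags in an overlapping region.

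By family, the Pemt-/- list held 326 Olfr, 41 V1r and 123 V2r regions, and the Pemt+/+ list held 423, 60 and 156. A receptor region of the Pemt-/- mouse held 8 to 56 tags, with a median of 13. One of the Pemt+/+ mouse held 9 to 100, with a median of 17. Both medians equal those of all regions of the same mouse. The fold enrichment that the authors deposited had a median of 18.0 in Pemt-/- and 17.9 in Pemt+/+, beside 16.9 and 16.5 over all regions. Regions tied to no gene had nearly the same medians as the receptor regions, 17.9 in Pemt-/- and 17.6 in Pemt+/+. The regions were short, with a median length of 446.5 bp in Pemt-/- and 445 bp in Pemt+/+, and together they covered 232 kb and 306 kb. Another gene outside these families was also tied to 22 regions of Pemt-/- and 36 of Pemt+/+.

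In the RefSeq table used here, receptor genes carried a region less often than other genes, among short genes too. A region was tied to 384 receptor symbols in Pemt-/- and 459 in Pemt+/+, of which 346 were tied to one in both mice, and 38 and 113 in a single mouse. The Pemt+/+ list was longer genome-wide, with 131279 regions against 97063, and no such split of other genes is given here. The 38 and 113 are therefore not read as a trait of receptors. Of 1467 protein-coding receptor genes in the RefSeq table, 25.8% (23.7 to 28.1%) had a region in Pemt-/- and 30.8% (28.5 to 33.2%) in Pemt+/+. Of 20160 other protein-coding genes, 61.5% and 66.2% had one. Receptor genes are short, so the comparison was repeated for genes under 10 kb, where 23.8% (21.6 to 26.1%) and 28.6% (26.2 to 31.1%) of 1329 receptor genes had a region, against 45.3% (44.1 to 46.5%) and 52.8% (51.5 to 54.0%) of 6411 other genes. Median lengths within that class still differed, at 945 bp for receptors and 4453 bp for the others. V2r genes, the longest family with a median of 24.4 kb, had a region most often, at 44.4% in Pemt-/- and 50% in Pemt+/+. Olfr genes had one in 25.8% and 30.6%, and V1r genes in 16.3% and 21.5%. The gene annotation behind the lists is not named, and any gene it lacked counts here as having no region. These shares can therefore be too low. The 46 V1r genes tied to a region all carried older V1r symbols there, beside 233 V1r genes in the RefSeq table. Most receptor genes had a single region, 281 in Pemt-/- and 312 in Pemt+/+, and 65 and 84 regions were tied to more than 1 receptor because the genes stand close together.

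Where a region lay relative to the gene depended on the family. Of all receptor regions, 24.7% (21.1 to 28.7%) lay inside or overlapped a receptor transcript in Pemt-/- and 25.2% (22.0 to 28.7%) in Pemt+/+. For regions tied to other genes the shares were 82.4% and 82.1%. The Olfr share was 14.1% in Pemt-/- and 16.5% in Pemt+/+, that is 46 and 70 regions. The V1r family had 1 such region in Pemt-/- and 2 in Pemt+/+, each of them over the end of a transcript and none fully inside. The V2r share was 60.2% in Pemt-/- and 57.1% in Pemt+/+. With Vmn2r99 left out it was 45.7% and 41.7%. By the position given in the lists (a region can have several), 98 regions in Pemt-/- and 134 in Pemt+/+ lay inside a transcript, 185 and 235 upstream, 237 and 307 downstream, 8 and 9 over a start, and 15 and 18 over an end. No region covered a whole receptor transcript. The nearest receptor was more than 5 kb away for 211 regions in Pemt-/- and 266 in Pemt+/+, which is 43.1% and 41.6%. Among V1r regions this share was 65.9% and 63.3%.

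**Figure D2:**
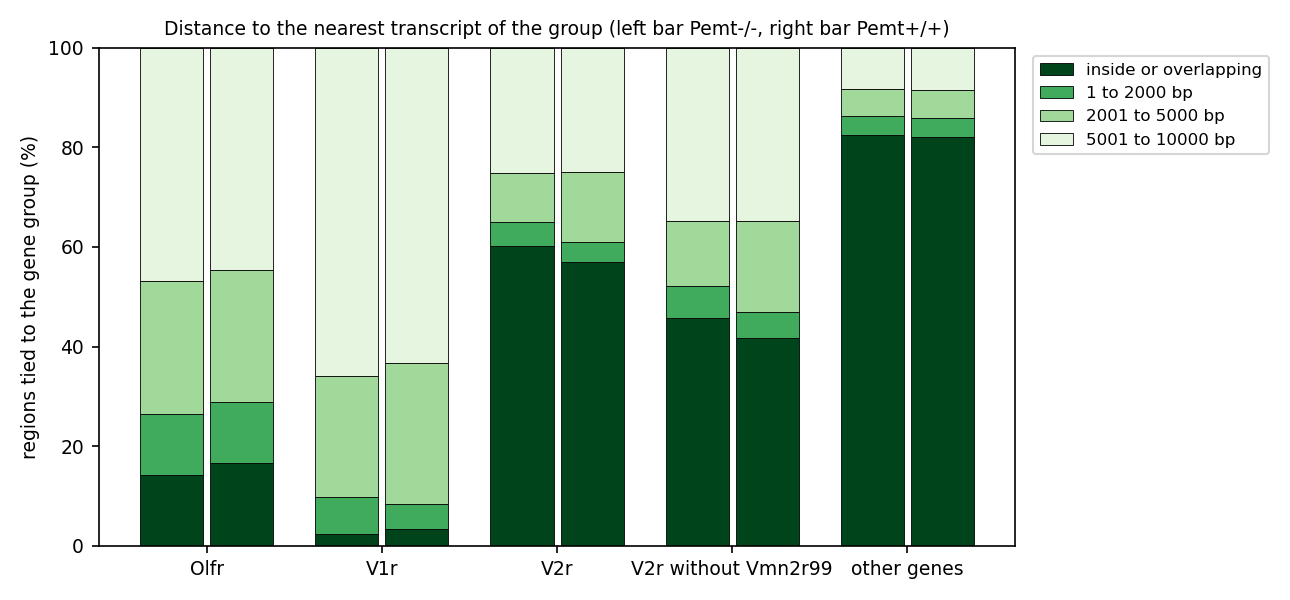
Percent of regions (vertical axis) by distance from the nearest transcript of the family, for Olfr, V1r, V2r, V2r with Vmn2r99 left out, and all other genes, with Pemt-/- as the left bar and Pemt+/+ as the right bar of each pair. Regions inside or overlapping a transcript make up 14.1% and 16.5% of Olfr regions and 82.4% and 82.1% of regions at other genes.

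Receptor regions were listed in both mice somewhat more often than regions at large, but their intervals held the shares of regions tied to no gene. The margin over regions at large varied with tag number. Of the Pemt-/- receptor regions, 423 or 86.3% (83.0 to 89.1%) had 1 bp or more in common with a region listed for Pemt+/+, beside 83.3% of all Pemt-/- regions. The other 67 receptor regions, 13.7%, stand beside 16.7% of all Pemt-/- regions that overlapped no Pemt+/+ region. Of the Pemt+/+ receptor regions, 423 or 66.2% (62.4 to 69.8%) overlapped a Pemt-/- region, beside 61.6% of all. The remaining 216, 33.8%, stand beside 38.4% of all Pemt+/+ regions. Regions tied to no gene were shared in 84.3% in Pemt-/- and 62.7% in Pemt+/+, and the receptor intervals held both values. The interval of the Pemt+/+ share left out the value of all regions, whereas that of Pemt-/- held it. The Pemt+/+ interval held that value in 3 alternatives, at 53.8 to 63.9% against 58.2% in the upper 50% of each list by score, at 70.5 to 78.1% against 71.9% with lists of equal size, and at 44.2 to 53.9% against 47.1% at 15 tags or more. By family, 84.0% of Olfr, 92.7% of V1r and 90.2% of V2r regions of Pemt-/- were shared, as were 64.5%, 63.3% and 71.8% of those of Pemt+/+. Regions with more tags were shared more often. In Pemt-/- the share rose from 66.9% at 10 tags or fewer to 100% of 40 regions at over 30 tags, and in Pemt+/+ it rose from 36.5% to 96.5%. Within the 10 classes of tag number, the interval of the receptors left out the share of all regions in 2, namely 89.6% (83.3 to 93.7%) against 83.3% at 11 to 14 tags in Pemt-/-, where the bound and the value round alike, and 36.5% (27.0 to 47.1%) against 26.1% at 10 tags or fewer in Pemt+/+.

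**Figure D3:**
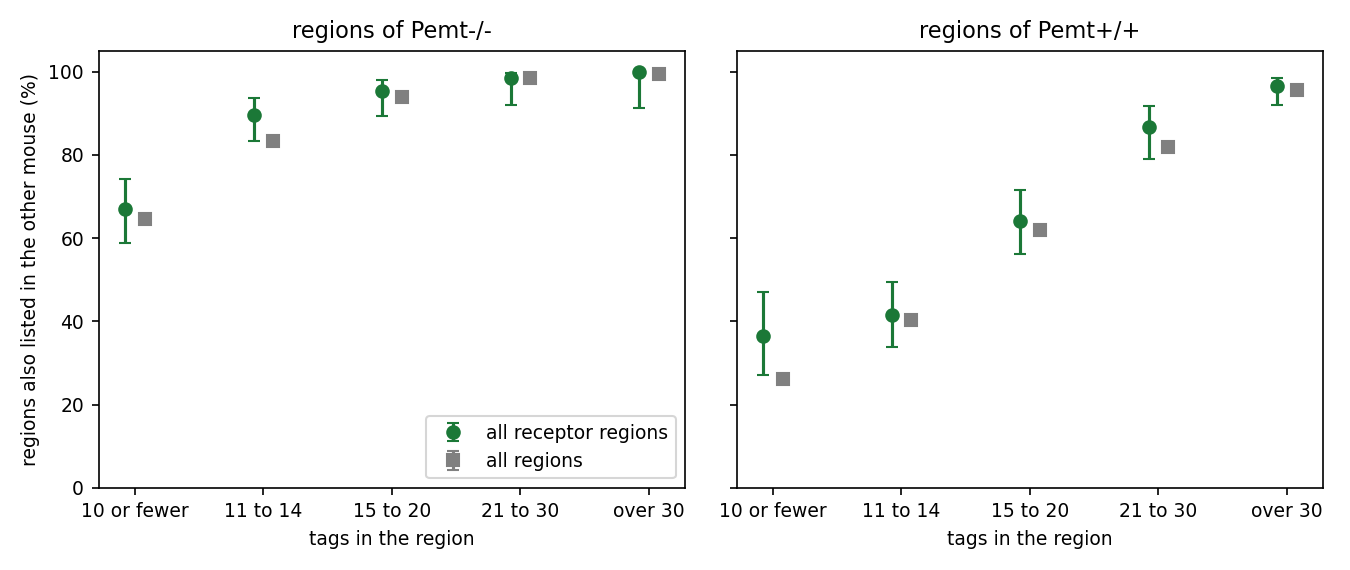
Percent of regions that overlap a region of the other mouse (vertical axis) by the number of tags in the region (horizontal axis), for receptor regions (green) and all regions (grey), with 95% Wilson intervals, in Pemt-/- (left) and Pemt+/+ (right). Both sets climb with tags, from 36.5% and 26.1% to 96.5% and 95.6% in Pemt+/+.

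The clusters differed mostly in how many regions they held. Receptors less than 1 Mb apart were joined, which gave 54 clusters on 18 chromosomes, of which 32 held at least 5 receptor genes with a region and 11 held 1. Chromosome 7 had the most receptor regions, 115 in Pemt-/- and 140 in Pemt+/+, followed by chromosome 17 with 63 and 91 and chromosome 2 with 56 and 76. The X chromosome had 1 and 2. Counting every region in the span of the 32 larger clusters, whether tied to a receptor or not, gave 24.1 regions per Mb in Pemt-/- and 31.8 in Pemt+/+ over 46.2 Mb. The whole genome had 36.6 and 49.6 per Mb. In each mouse 28 of the 32 clusters lay below the genome's value. The sparsest span had 11.3 per Mb in Pemt-/- and the densest 85.7, and in Pemt+/+ these limits were 16.3 and 130. The densest was the Olfr288 to Olfr234 cluster on chromosome 15, which spans 0.315 Mb, holds 16 receptor regions in Pemt-/- and 22 in Pemt+/+, and includes Olfr281, Olfr282 and Olfr283. Pemt+/+, whose list was longer genome-wide, had more receptor regions in 27 of the 32 and the same number in 5.

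Genes of a cluster are counted here only where a region was tied to them in either mouse, so the clusters can hold more genes. The cluster with the most regions was that of Vmn2r91 to V1rf2 (chr17:18213628-21397390). It held 10 V2r and 4 V1r genes so counted, with 47 regions in Pemt-/- and 71 in Pemt+/+. Of these, 93.6% and 64.8% were shared. Next came Olfr1008 to Olfr1274 (chr2:85539914-90240819) with 61 Olfr genes and 40 and 49 regions, of which 80.0% and 63.3% were shared. It was sparse, at 13.2 regions of any kind per Mb in Pemt-/- and 16.6 in Pemt+/+. Olfr543 to Olfr692 (chr7:109625646-112507455) held 47 genes with 36 and 43 regions, and 77.8% and 65.1% were shared. Olfr1417 to Olfr1494 (chr19:11903514-13825218) held 25 genes with 24 and 30 regions, and 91.7% and 73.3% were shared. Olfr877 to Olfr984 (chr9:37663892-39919330) held 28 genes with 22 and 26 regions. Among the 7 clusters with at least 20 regions in each mouse it had the lowest shared share in both, at 77.3% (56.6 to 89.9%) and 61.5% (42.5 to 77.6%). The highest was 95% (76.4 to 99.1%) for Olfr694 to Olfr514 on chromosome 7 in Pemt-/- and 87.0% (67.9 to 95.5%) for Olfr30 to Olfr225 on chromosome 11 in Pemt+/+. The lowest and highest intervals overlap in each mouse.

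Tags were then compared where 1 region of each mouse overlapped only the other, which gave 418 receptor pairs. The ratio of Pemt-/- to Pemt+/+ tags had a median of 0.650 (quartiles 0.515 and 0.853), against 0.682 (0.545 and 0.850) over all 79393 pairs. The Pemt-/- mouse had fewer tags in 360 receptor pairs, or 86.1%, the same in 19 and more in 39, and it had fewer in 85.3% of all pairs. The ratio is not scaled for the depth of the libraries, so the value over all pairs, not 1, is what it is read against. Of all tags in the receptor pairs, 38.9% (38.2 to 39.6%) came from Pemt-/-, beside 39.9% in all pairs. The Olfr value was 39.3% (38.5 to 40.2%) over 271 pairs. V2r pairs gave 38.2% (36.9 to 39.6%) over 110 and V1r pairs 37.2% (34.8 to 39.6%) over 37. In none of the 37 V1r pairs did Pemt-/- have more tags. Among all pairs this was so in 10.4%. Without the regions tied to Vmn2r99 alone, the receptor share was 39.1% (38.4 to 39.9%), an interval that just reaches the value of all pairs. A ratio of at least 2 times the median of all pairs was seen in 9 receptor pairs, 2.15%, beside 2.12% of all pairs. A ratio of at most 0.5 times the median was seen in 14, 3.35%, beside 1.93% of all. With at least 40 tags in a pair, 190 receptor pairs had a median ratio of 0.60 and all 33863 such pairs 0.625.

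**Figure D4:**
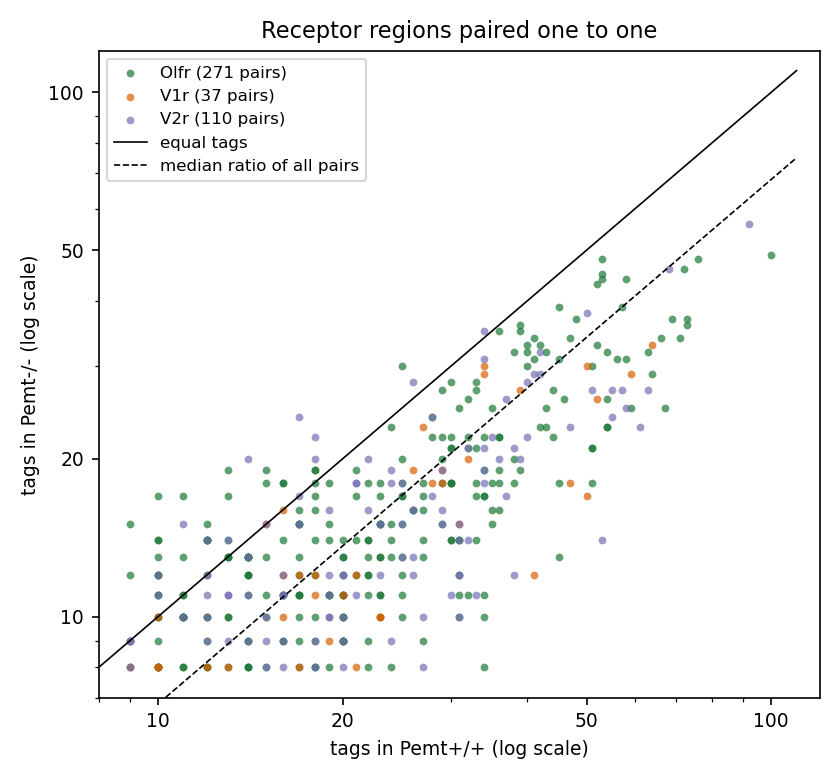
Tags in Pemt+/+ (horizontal axis) against tags in Pemt-/- (vertical axis, both on a log scale) for the 418 receptor regions paired one to one, coloured by family, with the line of equal tags (solid) and the median ratio of all pairs, 0.682 (dashed). Most points lie under the solid line, 360 of them, and they scatter around the dashed one.

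The pairs with the lowest ratios were at Olfr514 and Vmn2r99. Downstream of Olfr514, at a distance of 5942 bp, the Pemt-/- mouse had 8 tags (chr7:115962327-115962636) and the Pemt+/+ mouse 34, a ratio of 0.235. Inside Vmn2r99, Pemt-/- had 14 tags (chr17:19449270-19449750) and Pemt+/+ 53, a ratio of 0.264. The highest ratios among pairs with at least 20 tags were upstream of Olfr1178, with 15 tags in Pemt-/- (chr2:88223201-88223652) and 9 in Pemt+/+, a ratio of 1.67, and upstream of Olfr658, with 17 (chr7:111804089-111804403) and 10, a ratio of 1.70. Relative to the median of all pairs, these are 0.345 and 0.387 times at the low end and 2.44 and 2.49 times at the high end.

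By cluster, the Pemt-/- share of paired tags ran from 34.7% to 42.9% in the 20 clusters with at least 20 regions over both mice. The interval held the 39.9% of all pairs in 15 of them, and in the other 5 it lay below in 4 and above in 1. Among blocks of 20 neighbouring pairs along the whole genome, the interval left out that value in 8.64%. The clusters held other numbers of pairs, and an interval narrows with more pairs, so the 5 clusters cannot be set directly against this percent. The share in the blocks ran from 36.9% at the 5th percentile to 43.2% at the 95th. The cluster above 39.9% lay within this range, and the 4 below lay under it. The cluster above was Olfr543 to Olfr692 at 42.9% (40.2 to 45.6%) over 28 pairs. Olfr694 to Olfr514, the next cluster along chromosome 7, was among those below, at 35.5% (32.4 to 38.7%) over 19 pairs. The intervals of these 2 neighbours did not overlap, but they cover counting error only. The 2 were named as the highest and lowest of the 7 clusters with at least 20 regions in each mouse. The chromosome 17 cluster of Vmn2r91 to V1rf2 had 36.3% (34.3 to 38.3%) over 44 pairs, and Olfr1417 to Olfr1494 on chromosome 19 had 35.8% (33.2 to 38.6%). Olfr829 to Olfr18 on chromosome 9 had the lowest value, 34.7% (30.3 to 39.4%), over 7 pairs.

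**Figure D5:**
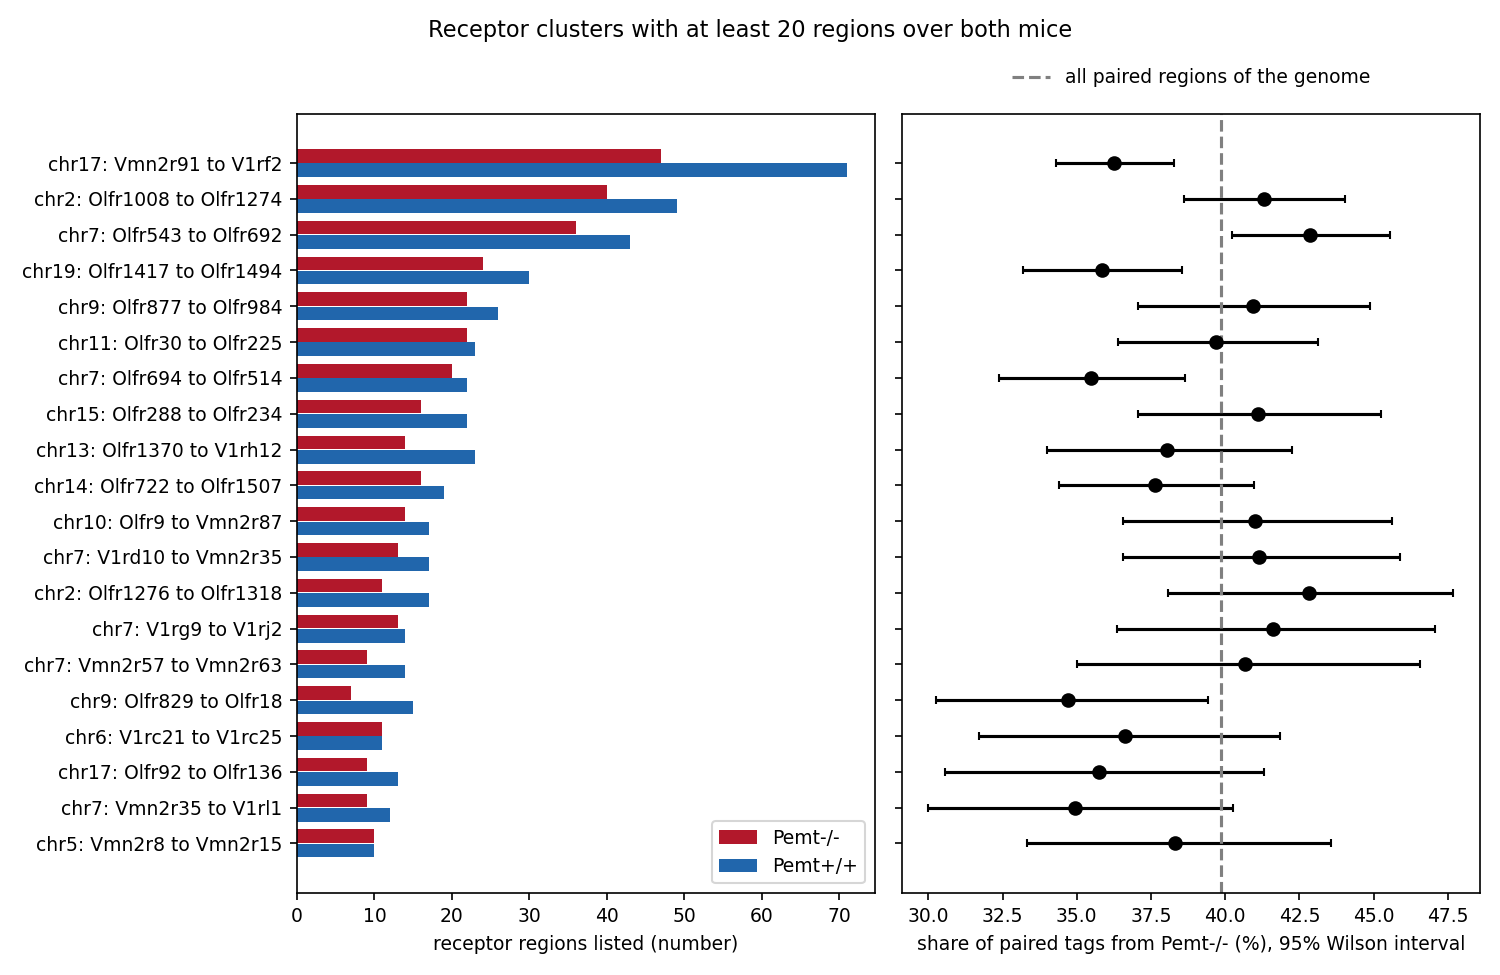
Number of receptor regions in Pemt-/- (red) and Pemt+/+ (blue) for each of the 20 clusters with at least 20 regions over both mice (left), and the percent of paired tags that came from Pemt-/- with its 95% Wilson interval (right, dashed line at the 39.9% of all pairs). The chromosome 17 cluster stands out by its 47 and 71 regions, and the chromosome 7 clusters Olfr543 to Olfr692 and Olfr694 to Olfr514 lie on opposite sides of the line.

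One gene, Vmn2r99 (NM_001104551.1, chromosome 17), took 34 regions in Pemt-/- and 45 in Pemt+/+, more than any other receptor. The lists place its transcript over more than 1 Mb, with inside regions spread over 1010 kb in Pemt-/- and 1044 kb in Pemt+/+, a span that holds other receptor genes. Such a placement is far longer than the 24.4 kb median of V2r genes, so the assignment to Vmn2r99 is uncertain, while the regions themselves stand. Its regions held 8 to 56 tags in Pemt-/- and 9 to 92 in Pemt+/+, and 31 and 32 of them were shared. In 28 of its 30 pairs Pemt-/- had fewer tags, beside 85.3% of all pairs. The share of its paired tags from Pemt-/- was 35.7% (33.3 to 38.2%), beside 39.9% in all pairs. The next were Vmn2r-ps11, a V2r pseudogene on chromosome 3, with 7 and 8 regions, and Vmn2r35 on chromosome 7, with 5 and 6. The regions of Vmn2r35 lie up to 1125 kb apart, in a pair of clusters, and its 51 tags in Pemt-/- stand beside 110 in Pemt+/+. Reads from near-identical copies could not be told apart with the files used here. Olfr234 on chromosome 15 had 4 regions in each mouse, with 76 and 115 tags, and Olfr462 on chromosome 11 had 3 and 5, with 38 and 102 tags.

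The regions with the most tags were the same 3 in both mice. At Vmn2r99 and Vmn2r97 (chr17:19073560-19074645), Pemt-/- had 56 tags and Pemt+/+ 92. Upstream of Olfr1451, at 5283 bp (chr19:13067411-13068194), the mice had 49 and 100. Downstream of Olfr746, at 4282 bp (chr14:51278140-51279588), they had 48 and 76. The ratios of Pemt-/- to Pemt+/+ tags were 0.609, 0.49 and 0.632, beside the median of 0.682 over all pairs.

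The highest scores (10 times the −log10 p-value deposited by the authors) among regions of a single mouse were lower in Pemt-/- than in Pemt+/+. In Pemt-/- the leading region, downstream of Olfr1137, had 17 tags and a score of 118.67. It was followed by one downstream of Olfr877 with 10 tags (chr9:37663892-37664140) and one inside Vmn2r27 with 9 tags (chr6:124161314-124161551). In Pemt+/+ the leading region lay inside Vmn2r91 (chr17:18256795-18257473), with 46 tags and a score of 309.83, and the nearest Pemt-/- region was 10050 bp away with 8 tags. The next lay 3284 bp upstream of Olfr1393 (chr11:49090004-49090367), with 37 tags and a score of 288.95. The nearest Pemt-/- region there was 1284 bp away, with 11 tags. The third lay inside Olfr981 (chr9:39830379-39830822), with 26 tags. Genome-wide, too, the median score was lower in Pemt-/-, at 90.0 against 104 in Pemt+/+.

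A second, shorter list was deposited for each mouse, and the sources used here do not say how it was made. It held 7 of the Pemt-/- receptor regions, 1.43%, beside 2.13% of all Pemt-/- regions. Every one of the 7 was at an Olfr gene and had an FDR of 100%, which was also the median of that whole list. The shorter Pemt+/+ list held 33 of the Pemt+/+ receptor regions, 5.16% (3.70 to 7.16%), beside 4.59% of all Pemt+/+ regions. Their FDR values ran from 22.69% to 36.36% with a median of 32.38%, beside a median of 32.64% in that whole list. The Pemt+/+ regions were 19 at Olfr, 3 at V1r and 11 at V2r genes, 5 of the last at Vmn2r99. They held 9 to 67 tags with a median of 20, beside a median of 17 in the whole list. Of the 33, 9 lay over a region that the longer list gave for Pemt-/-, a share not given here for the whole list. The highest score in the shorter Pemt+/+ list was 95.04, between Olfr1151 and Olfr1152 (chr2:87702552-87702840), where 14 tags were listed. It was followed by the Vmn2r99 region with 53 tags, at a score of 93.40, and by one upstream of Vmn2r104 with 24 tags (chr17:20192693-20193023), at 92.53. In the shorter Pemt-/- list the highest scores were 68.93 at Olfr1137 with 17 tags (chr2:87546901-87547528), 68.57 at Olfr1047 and Olfr1048 with 12 tags (chr2:86077362-86077617), and 60.31 at Olfr1306 with 12 tags (chr2:111743676-111744122). The Olfr1047 and Olfr1048 region overlapped a Pemt+/+ region with 10 tags.

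Of 13 receptors with a known ligand or use, 4 had a region, and these had one in both mice. This stands beside 25.8% of all protein-coding receptor genes in Pemt-/- and 30.8% in Pemt+/+, so the 13 were close to receptors at large. Olfr78, a receptor for short-chain fatty acids such as acetate and propionate that is also found in blood vessels and kidney, had 48 tags in Pemt-/- (chr7:109883188-109883653) and 53 in Pemt+/+, at 5591 bp downstream. Its ratio was above the median of all pairs. A further region inside Olfr78 was listed in Pemt+/+ alone, with 11 tags (chr7:109894286-109894641). Olfr544, which responds to azelaic acid, had 10 tags in Pemt-/- and 12 in Pemt+/+ in a region that lay inside its neighbour Olfr543, and Pemt+/+ had another with 11 tags. Olfr1393, described in the kidney, had 1 region with 11 tags in Pemt-/- (chr11:49088421-49088720) and 3 regions with 37, 13 and 12 tags in Pemt+/+, none of which overlapped that of Pemt-/-. Vmn2r116, the receptor for the male tear peptide ESP1, had 21 tags in Pemt-/- and 34 in Pemt+/+, 8331 bp upstream. The other 9, Olfr2, Olfr16, Olfr17, Olfr73, Olfr151, Olfr160, Olfr1440, Olfr1509 and Vmn1r49, had no listed region in either mouse. A list holds only regions that passed the caller, so no listed region does not mean that no tag lay there.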

How the data were processed

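Methylated DNA was captured from liver DNA with the EpiXplore kit, prepared with the TruSeq ChIP kit and sequenced on a Genome Analyzer IIx, 1 library per genotype. The labels add a bisulphite step before capture that the Methods do not mention. The submitters' processing notes name CASAVA 1.8.2, Bowtie and mm9. The caller's version, settings, control and treatment of duplicate reads are not given in the sources used here, and the control and the treatment of duplicates both change tag counts and scores.

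The authors deposited, for each region, a raw count of tags, a score (10 times the −log10 p-value, lowest 50), a fold enrichment, which is a ratio over the background used by their caller, and an FDR in percent, which is 0 in every row of the longer lists. Each region was used once. Overlap needed 1 bp, and Wilson intervals had a level of 95%. Receptor genes were matched to RefSeq (GRCm38.p6) by symbol or synonym, 490 of 497 symbols. No coordinates were moved between builds. CpG were counted in the 250 bases before each start. Python 3.11.15, pandas 2.3.3, numpy 2.4.6, scipy 1.17.1 and matplotlib 3.10.9 were used. The overlap and pairing steps were tested on simulated regions.

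The families and lists were chosen with earlier results of these data known. The named items are 13 receptors with a known ligand or use, the 3 regions per mouse with the most tags, those with the highest score listed in a single mouse, those over a start, and those of highest score in each shorter list, the 5 genes and 5 clusters with the most regions, the clusters of at least 20 regions per mouse with extreme shares, and the 2 pairs of highest and of lowest ratio with at least 20 tags. Of the other genes with a start region, Vmn2r29, Olfr71 and Olfr820 were named after their values were seen. The alternatives were an overlap of 50%, the better-scoring 50% of regions, lists of equal size, at least 15 tags, autosomes, regions whose nearest transcript was a receptor's, a gap of 500 kb between clusters, and, chosen after seeing the data, leaving out the regions tied to Vmn2r99 alone.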

Additional observations from a re-analysis of the deposited data

How the results depend on the processing

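No paired analysis was possible because there was 1 library per genotype and no result comes from a test. In the upper 50% of each list by score, 260 receptor regions at 239 genes were left in Pemt-/- and 358 regions in Pemt+/+, and 81.5% and 58.9% were shared. An overlap of 50% of both regions gave 81.0% and 62.0%. With lists of equal size the shares were 76.5% and 74.5%, beside 72.2% and 71.9% of all regions, and 38.1% of paired tags came from Pemt-/-. Shared regions mostly overlap 1 to 1, so equal list sizes bring the shares of the mice together largely by construction. At 15 tags or more, 213 regions at 183 genes were left in Pemt-/- and 402 regions in Pemt+/+, and 93.0% and 49.0% were shared. The shared share of receptor regions was above that of all regions under each of these 4 alternatives, but the Pemt+/+ interval left out the value of all regions only with the overlap of 50%, and the Pemt-/- interval only with lists of equal size. Without the regions tied to Vmn2r99 alone, an alternative chosen after seeing the data, 19.6% and 20.2% of regions lay inside or over a transcript. The other 47 recomputed values moved by less than their interval or, for counts, by less than 1.5 times. Regions with about 10 tags carry wide counting error, and library totals were not given in the sources used here, so differences in tags cannot be told apart from depth.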

Other observations

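Trace amine receptors, which sense volatile amines in the nose, had a region at 7 of 15 Taar genes (46.7%) in Pemt-/- and 9 (60.0%) in Pemt+/+. Of protein-coding genes other than the Olfr, V1r and V2r families, 61.5% and 66.2% had one, and 45.3% and 52.8% of those under 10 kb. The Taar genes had 160 and 304 tags in 7 and 10 regions, a ratio of 0.526 beside 0.556 for the tags of all regions. Taar2 and Taar3 carried the most, 104 and 177 tags in regions that both genes share, and the start of Taar3 lay under a region in each mouse. Of 38 taste receptor genes, 8 (21.1%) and 10 (26.3%) had a region, with 9 and 13 regions in all. Of these regions 66.7% and 46.2% were shared, beside 83.3% and 61.6% of all regions. Of 7 formyl peptide receptor genes, 0 had a region in Pemt-/- and 2 (28.6%) in Pemt+/+, tied to 1 region with 11 tags.

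Of 18 genes of odor transduction and receptor choice, 10 (55.6%) had a region in Pemt-/- and 13 (72.2%) in Pemt+/+, beside 61.5% and 66.2% of protein-coding genes other than receptors. Of their 85 and 126 regions 75 were shared, which is 88.2% and 59.5%, beside 83.3% and 61.6% of all regions. Ebf1, a transcription factor of olfactory neurons and B cells, had 34 and 43 regions with 517 and 883 tags. Gnal, the G protein subunit of olfactory signaling, had 13 and 19 regions with 212 and 425 tags. Omp, the olfactory marker protein, had 0 and 2 regions, and Gnai2, a G protein subunit used by V1r neurons and widely elsewhere, had 0 and 4 with 76 tags in Pemt+/+. Trpc2, the channel of vomeronasal neurons, had 3 and 8 regions. Other genes of the 18 differed less, such as Ano2 with 13 and 16, Ric8b with 8 and 10, Ldb1 with 3 and 4, and Cnga4 with 2 in each mouse. The Pemt+/+ list was longer genome-wide, with 131279 regions against 97063.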
